A study of Rattus norvegicus with 6 samples.

Results

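Chemokines are small secreted proteins that draw leukocytes along a concentration gradient, and the genes described here encode 9 inflammatory chemokines of the CXC and CC families, Cxcl1, Cxcl2, Cxcl3, Cxcl10, Cxcl11, Ccl2, Ccl7, Ccl20 and Ccl5. They were taken by symbol from the 30957 Ensembl rat genes of the deposited table. The set was selected on the same contrast that is described below, crushed against intact nerves, with the direction of several of its genes known, so the levels and fold changes of the 9 genes are a description and carry no test. RNA-seq was performed on 3 crushed and 3 intact contralateral sciatic nerves of Sprague Dawley rats, with no transgene and no drug in either group. The methods describe adult male animals, a crush of 1 sciatic nerve, the opposite nerve left intact, and tissue taken at 4 dpi (days postinjury), from the proximal stump of the crushed nerve, while the labels give no time point or age. Neither source says whether a crushed and an intact nerve with the same number came from 1 rat, nor whether nerves were pooled, so the spread between nerves may be partly technical. The methods and the labels differ on the RNA kit, on the use of RNase R, which digests linear transcripts, and on the side of the lesion.

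As background, the ELR-type CXC chemokines (Cxcl1, Cxcl2 and Cxcl3) act mainly on neutrophils through Cxcr2, and the interferon-inducible Cxcl10 and Cxcl11 act on activated T cells through Cxcr3. Ccl2 and Ccl7 attract monocytes through Ccr2, Ccl20 attracts cells that carry Ccr6, and Ccl5 attracts T cells and monocytes. In an injured nerve, Schwann cells, fibroblasts and resident macrophages are known sources of these proteins. Transcription of most of them is induced by TNF or interleukin-1 through NF-κB, and that of Cxcl10 and Cxcl11 also by interferons.

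The counts on genes summed to between 24844371 and 27139360 per nerve, and a floor of 3 counts, under which a gene is not told from 0, was 0.110 to 0.121 CPM (reads per gene relative to the TMM-adjusted library total). It covers counting error only. Markers of the labelled tissue were mixed. Of the 13 Schwann cell and myelin markers, 6 had enough counts to be tested, among them Prx with 590 to 690 counts per nerve, Erbb3 with 89 to 135 and Gfap with 65 to 81. Defining genes of the lineage were at or near 0, since the myelin gene Mbp had at most 1 count in any nerve, Sox10 and S100b had at most 1 and 3, and Mag and Cdh19 had none, whereas Mki67, a gene of dividing cells, had 37037 to 43837 counts. The leukocyte genes Ptprc, Adgre1, C1qa, C1qb, Cd163 and Tyrobp had no count in any of the 6 nerves. Of the 13 macrophage and pan-leukocyte markers, 6 had no count and 8 had at most 3 counts in every nerve, and their summed level was 3.94 to 5.61 CPM in intact and 4.43 to 6.30 CPM in crushed nerves. The 3 with enough counts to be tested were Cd14 (49 to 84 counts per nerve), Cd68 (29 to 52) and Csf1r (18 to 29). None of them had an adjusted p under 0.05. Lyz2 had at most 2 counts in an intact and 8 in a crushed nerve, and Itgam at most 4 and 8. The Schwann cell and myelin markers, 2 of them with no count and 6 with at most 3, summed to 70.7 to 75.0 CPM in intact and 66.5 to 67.4 CPM in crushed nerves, and Erbb3 was lower by an adjusted p under 0.05 (log2 fold change -0.59, edgeR adjusted p = 0.0222). The 8 neutrophil markers, 6 of them with no count, summed to 0.227 to 0.323 CPM in intact and 0.0366 to 0.110 CPM in crushed nerves. The 8 fibroblast markers summed to 197.3 to 211.1 CPM in intact and 169.8 to 188.5 CPM in crushed nerves, with Dcn, Lum and Col1a2 at 0. The most abundant were Thy1 (2431 to 3372 counts per nerve) and Pdgfra (1114 to 1525). Their log2 fold changes were -0.23 and 0.19, neither with an adjusted p under 0.05 (edgeR adjusted p = 0.0552 and 0.166). Of the 8 markers, 3 were lower by an adjusted p under 0.05. These were Col1a1, Pdgfrb and Col3a1, with log2 fold changes of -0.69, -0.77 and -1.76 (edgeR adjusted p = 0.000662, 0.00106 and 0.0268). Of these, Col3a1 was past the limits set out below, and it was not called by DESeq2 (unadjusted p = 0.00118) or with the replicate block (unadjusted p = 0.00166). The T cell, endothelial, skeletal muscle and proliferation markers summed to 1.34 to 1.57, 4.62 to 5.49, 0.682 to 0.767 and 3108 to 3310 CPM in intact and to 1.07 to 1.92, 3.77 to 5.08, 0.878 to 1.18 and 2980 to 3105 CPM in crushed nerves. The part of these cell types in the chemokine values was not tested. The libraries are called crushed and intact nerves after their labels. With several defining markers of Schwann cells and leukocytes at or near 0 and Mki67 high, the markers did not bear out whole nerve tissue, and which cells the chemokine counts came from cannot be told from these data. In bulk RNA, fewer cells of a type and less RNA per cell cannot be told apart.

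The start regions of the genes are shown so that genes that separated by group (Cxcl1 and Ccl7) can be read beside 1 that overlapped (Cxcl10) and 1 that was near 0 (Cxcl2). RefSeq (GRCr8) gave the 250 bases before and 50 bases from the start for 6 of the 9 genes, Ccl20, Ccl7, Cxcl11, Cxcl10, Cxcl2 and Cxcl1. Capitals mark every match to the κB (NF-κB) consensus on either strand, and overlapping matches are merged. Cxcl1 lies at chr14:17479272-17479571 and Cxcl2 at chr14:17467206-17467505, both on the minus strand. Cxcl10 lies at chr14:15988816-15989115 and Ccl7 at chr10:67513845-67514144, both on the plus strand.
Cxcl1: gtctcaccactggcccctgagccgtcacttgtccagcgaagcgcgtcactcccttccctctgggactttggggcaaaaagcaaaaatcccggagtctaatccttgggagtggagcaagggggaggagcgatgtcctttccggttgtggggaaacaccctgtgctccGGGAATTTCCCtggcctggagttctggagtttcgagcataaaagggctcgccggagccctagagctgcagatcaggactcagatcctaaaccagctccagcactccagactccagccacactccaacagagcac
Cxcl2: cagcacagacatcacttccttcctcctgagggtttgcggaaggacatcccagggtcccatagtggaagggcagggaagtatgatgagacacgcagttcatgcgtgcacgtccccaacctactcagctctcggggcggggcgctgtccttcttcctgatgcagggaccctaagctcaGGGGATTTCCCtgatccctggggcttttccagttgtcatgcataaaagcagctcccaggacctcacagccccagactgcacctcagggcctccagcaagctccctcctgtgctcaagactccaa
Cxcl10: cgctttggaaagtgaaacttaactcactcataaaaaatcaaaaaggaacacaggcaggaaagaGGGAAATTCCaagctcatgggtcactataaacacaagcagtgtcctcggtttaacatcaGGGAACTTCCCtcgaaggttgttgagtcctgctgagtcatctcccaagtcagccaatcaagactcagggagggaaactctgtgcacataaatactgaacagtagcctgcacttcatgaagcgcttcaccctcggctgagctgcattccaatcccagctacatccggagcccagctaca
Ccl7: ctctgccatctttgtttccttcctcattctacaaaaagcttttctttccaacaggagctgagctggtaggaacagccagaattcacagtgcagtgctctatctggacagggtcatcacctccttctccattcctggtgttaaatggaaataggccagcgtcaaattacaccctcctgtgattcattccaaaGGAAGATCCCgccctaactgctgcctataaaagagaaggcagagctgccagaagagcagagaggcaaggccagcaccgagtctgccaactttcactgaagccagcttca

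Positions are counted from the start, with -1 the base just before it. In Cxcl1 the match spanned -84 to -74, and in Cxcl2 it spanned -74 to -64. Cxcl10 held matches at -187 to -178 and at -128 to -118, and Ccl7 held 1 at -59 to -50. A κB match was also present in the windows of Cxcl11 (-74 to -65) and Ccl20 (-89 to -80), so all 6 windows held at least 1, against 7.53% of the 33365 RefSeq windows of the same length. The AP-1 motif TGANTCA, which reads the same on both strands, was found in Ccl7, Cxcl11 and Cxcl10, against 7.34% of windows. The core of the interferon-stimulated response element (GAAA, any 2 bases, GAAA, on either strand) was found in Cxcl10 alone of the 6, at -243 to -234, against 3.92% of windows. A TATAAA match lay in Ccl7, Cxcl11 and Cxcl10, against 14.2% of windows. These are matches of letters in the rat reference and not measured binding. Most of these genes are known to be induced through NF-κB, and Cxcl10 and Cxcl11 also by interferons, so nothing is read from these shares. No window was available for Ccl2, Cxcl3 or Ccl5.

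Of the 9 chemokine genes, 5 had enough counts to enter the comparison, and 3 of these, Cxcl1, Cxcl3 and Ccl2, were past the study's limits of an absolute log2 fold change above 1 and an unadjusted p under 0.001. Among all 12393 genes tested, 0.218% were higher by these limits and 0.0646% were lower. For 4 of the 5 chemokine genes tested the lowest crushed nerve lay above the highest intact one, against 10.8% of all genes tested. Because the set was chosen with this contrast known, nothing is read from these shares.

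Cxcl1 (chromosome 14 from 18743685 to 18745457 in the coordinates of the deposited table, for which the submitters' processing notes name Rnor_6.0) was the most abundant of the set in both groups. In intact nerves 1, 2 and 3 it had 472, 566 and 485 counts, against 1455, 1395 and 1541 counts in the crushed nerves of those numbers. The groups did not overlap, and the lowest crushed nerve had more than 2 times the count of the highest intact nerve. The mean rose from 19.9 ± 1.43 to 55.4 ± 5.38 CPM (SD, n = 3 each), a fold of 2.78 with a 95% interval of 2.45 to 3.15 and a log2 fold change of 1.48 (SE 0.0824). The coefficient of variation was 7.16% in intact and 9.71% in crushed nerves, where counting error alone gives 4.44% and 2.61%.

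Cxcl3 (chromosome 14, 18820168 to 18839595) had the largest fold of the set from a low base. Intact nerves had 18, 26 and 14 counts, crushed nerves had 219, 205 and 200, and the groups did not overlap. Its mean was 0.754 ± 0.213 CPM in intact and 7.85 ± 0.260 CPM in crushed nerves (SD, n = 3 each), a fold of 10.3 (95% interval 7.90 to 13.4) and a log2 fold change of 3.36 (SE 0.173). Of all genes tested, only Tnip3 had a larger log2 fold change, 4.33, on 0 to 2 counts in intact and 19 to 26 counts in crushed nerves. The coefficient of variation was 28.3% in intact nerves, where counting error gives 22.7%, and 3.32% in crushed nerves, where it gives 6.93%. Cxcl1, Cxcl2 and Cxcl3 are close in sequence, and how reads that fit more than 1 of them were counted is not given in the sources used here.

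Cxcl2 (chromosome 14, 18731378 to 18733391), the neighbour of Cxcl1 and a ligand of the same receptor, had no count in 5 nerves and 1 count in crushed nerve 3. Its lower deposited coordinate lies 12.31 kb from that of Cxcl1, and that of Cxcl3 lies 76.48 kb from that of Cxcl1 on the other side. No fold is given for Cxcl2, since both groups were under 3 counts.

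Neither gene of the interferon-inducible pair was past the limits. Cxcl10 (chromosome 14, 17210733 to 17212930) had 236, 239 and 244 counts in the intact and 280, 272 and 230 counts in the crushed nerves. The groups overlapped, with crushed nerve 3 below all 3 intact nerves by count and below intact nerves 1 and 3 by CPM. Its mean was 9.41 ± 0.403 CPM in intact and 9.82 ± 0.564 CPM in crushed nerves (SD, n = 3 each), a fold of 1.04 with a 95% interval of 0.908 to 1.20. The fold of Cxcl1 was 2.78, and both folds are a description without a test. Cxcl11 (chromosome 14, 17195014 to 17198291) had 0 counts in all intact nerves and 4, 1 and 0 counts in the crushed nerves. Its lower deposited coordinate lies 15.72 kb from that of Cxcl10. Both genes overlap the annotated gene Art3, which had no count.

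**Figure D1:**
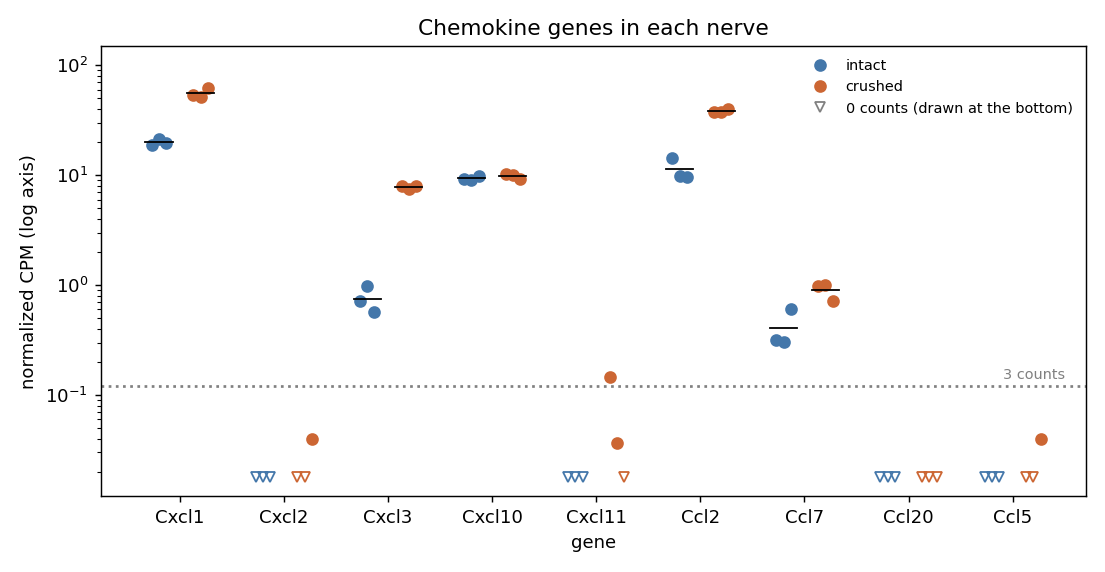
Normalized CPM of the 9 chemokine genes in each nerve, on a log axis, with intact nerves in blue and crushed nerves in orange. Bars are means of 3 nerves, open triangles at the bottom are nerves with 0 counts, and the dotted line is 3 counts. Cxcl1, Cxcl3, Ccl2 and Ccl7 separate by group, Cxcl10 does not, and Cxcl2, Cxcl11, Ccl20 and Ccl5 lie at or near 0.

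Ccl2 (chromosome 10, 69412017 to 69413870), the main monocyte attractant, had 363, 258 and 240 counts in the intact group, against 1030, 1029 and 1003 in the crushed group. The crushed nerves lay close together and far above the intact nerves, of which nerve 1 was the highest. The mean was 11.3 ± 2.66 CPM in intact and 38.5 ± 1.29 CPM in crushed nerves (SD, n = 3 each), a fold of 3.42 with a 95% interval of 2.82 to 4.15 and a log2 fold change of 1.77 (SE 0.126). Its intact nerves had a coefficient of variation of 23.6%, against 5.90% from counting alone, and its crushed nerves 3.34%, against 3.13% from counting.

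Ccl7 (chromosome 10, 69423086 to 69424979), a second ligand of Ccr2, was much lower than Ccl2. It had 8, 8 and 15 counts in the intact and 27, 27 and 18 counts in the crushed nerves. The crushed nerves lay above the intact ones without overlap, but the gap between crushed nerve 3 and intact nerve 3 was 18 against 15 counts. The mean was 0.408 ± 0.171 CPM in intact and 0.901 ± 0.158 CPM in crushed nerves (SD, n = 3 each), a fold of 2.21 with a 95% interval of 1.34 to 3.67, and the gene was not past the limits. It reached the expression filter of 0.384 CPM in 3 crushed nerves and in 1 intact nerve.

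The remaining CC genes were not detected. Ccl20 (chromosome 9, 88918433 to 88921001) had 0 counts in all 6 nerves, and Ccl5 (chromosome 10, 70739800 to 70744315) had 0 counts in 5 nerves and 1 count in crushed nerve 3. At this depth a level of up to 3 counts per nerve could have been present.

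**Figure D2:**
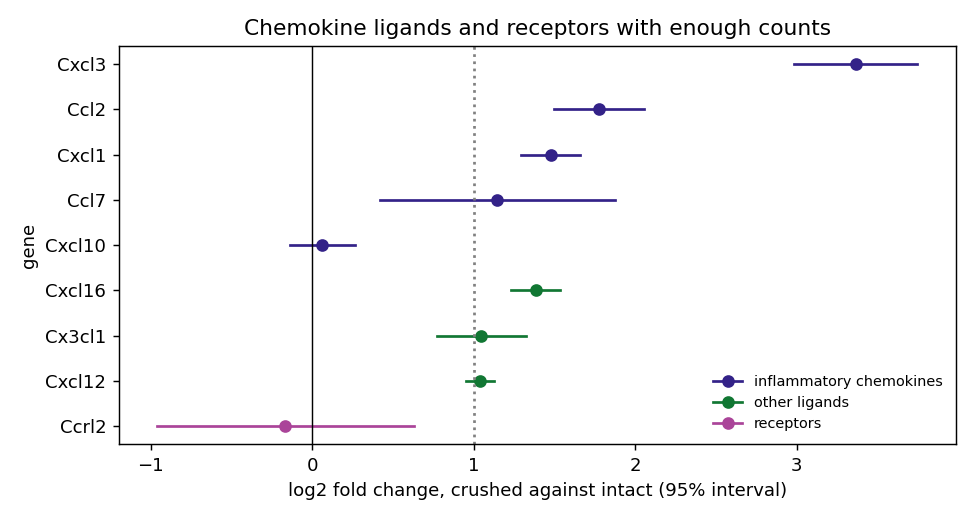
Log2 fold change of crushed against intact nerves with its 95% interval for the inflammatory chemokines, the other chemokine ligands and the receptor that had enough counts; the dotted line marks a log2 fold change of 1. Cxcl3 lies highest at 3.36, the interval of Ccl7 runs from 0.42 to 1.87, and those of Cxcl10 and of the receptor Ccrl2 include 0.

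Levels of different genes can be set side by side only per length, for which the deposited FPKM values (read counts divided by gene length and library total) were used. The 9 genes summed to 44.0 ± 1.80 FPKM in intact and 121.5 ± 6.90 FPKM in crushed nerves (SD, n = 3 each), with ranges of 42.4 to 45.9 and 116.3 to 129.3. Cxcl1 held 48.7% of that sum in intact and 49.4% in crushed nerves, so its share was about the same. The share of Ccl2 was 30.3% in intact and 38.2% in crushed nerves, and that of Cxcl3 was 1.10% and 4.20%. Cxcl10 went the other way, from 18.8% ± 1.44 to 7.19% ± 0.776 (SD, n = 3 each), with a level that had hardly moved.

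In intact nerves the order of FPKM was Cxcl1 (19.9 to 23.0), Ccl2 (11.6 to 17.0), Cxcl10 (7.94 to 8.66), then Cxcl3 (0.364 to 0.632) and Ccl7 (0.355 to 0.710), and only the last pair overlapped. Cxcl1 remained highest in crushed nerves with 55.7 to 66.8 FPKM, ahead of Ccl2 with 45.5 to 48.2, Cxcl10 with 8.14 to 9.10, Cxcl3 with 4.89 to 5.21 and Ccl7 with 0.850 to 1.17. None of these ranges overlapped. The ratio of Cxcl1 to Cxcl3 was 46.1 in intact nerves (36.4 to 58.0) and 11.8 in crushed nerves (11.1 to 12.9), while that of Cxcl1 to Ccl2 was 1.66 ± 0.427 and 1.29 ± 0.0833. Ranked by mean FPKM among the genes above 0, Cxcl1 stood at 4355 of 16530 in intact and 1540 of 16561 in crushed nerves, and Ccl2 at 6010 and 2077.

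**Figure D3:**
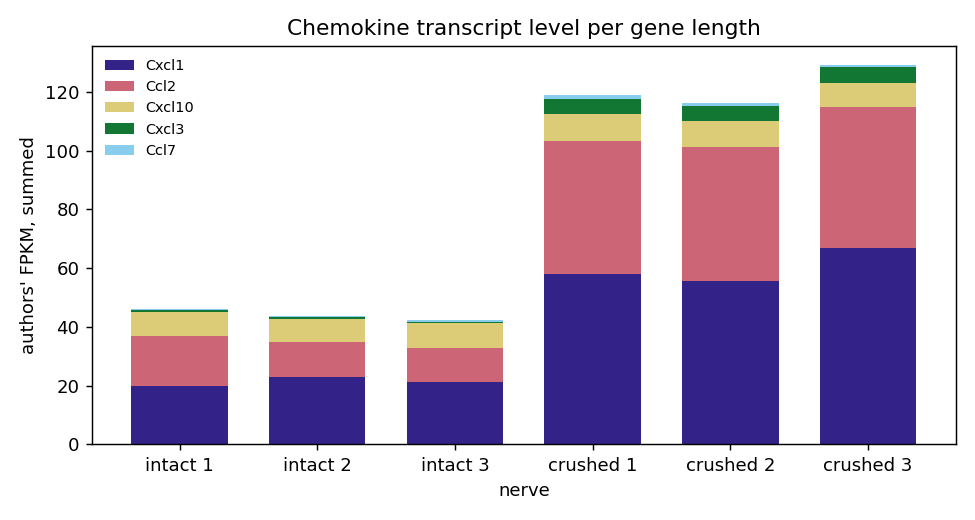
Deposited FPKM of Cxcl1, Ccl2, Cxcl10, Cxcl3 and Ccl7, stacked for each of the 3 intact and 3 crushed nerves. The stacks reach 42.4 to 45.9 in intact and 116.3 to 129.3 in crushed nerves, with Cxcl1 and Ccl2 making up most of each.

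Of the 12 receptor genes listed, 11 were in the table and 8 of them, among them Cxcr1, Cxcr2, Ccr2 and Ccr6, had no count in any nerve. Cxcr3, the receptor of Cxcl10 and Cxcl11, had at most 1 count in an intact and 2 counts in a crushed nerve, and Ccr1 had at most 2 and 4. Ccrl2, an atypical receptor known mainly for binding chemerin and not for any of the 9 ligands, was the only one on the list with enough counts to be tested, with 20, 24 and 10 counts in intact and 19, 21 and 10 in crushed nerves. The groups overlapped, and the log2 fold change was -0.17 with a 95% interval of -0.96 to 0.63 (edgeR's quasi-likelihood test, adjusted p = 0.865). With edgeR, 0 receptors were past the limits and 0 had an unadjusted p under 0.05, and DESeq2 also called 0.

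Of 28 other chemokine ligands, 27 were in the table, 19 had no count, and only 3 had enough counts to be tested. These 3 were past the limits, against 0.218% of all genes, and they were also higher by an adjusted p under 0.05, as were 1.47% of all genes. The list was chosen with earlier results of these data known, so nothing is read from these shares. Cxcl16, a membrane-anchored ligand of Cxcr6, had 1495, 1559 and 1217 counts in intact and 3945, 3805 and 3800 counts in crushed nerves. Its groups were far apart, with a log2 fold change of 1.38 (SE 0.0696, edgeR adjusted p = 2.56e-06).

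Cxcl12, the ligand of Cxcr4, was the most abundant of the 3, with a mean of 191.0 ± 4.02 CPM in intact and 392.4 ± 10.4 CPM in crushed nerves (SD, n = 3 each) and a log2 fold change of 1.04 (SE 0.0395, edgeR adjusted p = 2.86e-07). Cx3cl1, the membrane-bound fractalkine, had 158, 140 and 108 counts in intact and 310, 300 and 263 counts in crushed nerves, again without overlap. Its log2 fold change of 1.05 (SE 0.125, edgeR adjusted p = 0.000918) was 0.93 without intact nerve 3 and 0.76 with limma on log2(FPKM + 1), both under the limit. Cxcl6, a further ELR ligand named after its values were seen, had 1, 0 and 0 counts in intact and 11, 5 and 3 counts in crushed nerves and was too low to be tested. The ratio of its summed counts was 18.3, with an exact 95% counting interval of 2.90 to 759.1.

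Genes of the TNF and NF-κB pathway, known as the main inducing pathway of these chemokines, rose in part. Of 47 genes listed, 46 were in the table and 40 were tested. Of these, 5 were called higher and 0 lower, against 0.218% and 0.0646% of all genes. By an adjusted p under 0.05, 16 were higher and 0 lower, against 1.47% and 1.65% of all genes, and 24 did not pass. With an unadjusted p under 0.05, 2 genes were lower, and DESeq2 called 5 higher and 0 lower. The median log2 fold change over the 40 genes was 0.22, against -0.0017 over all genes tested. The study named these pathways from the same nerves, so the list is not independent evidence of its direction.

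The 5 genes called were inhibitors, subunits and targets of NF-κB. Nfkbia, which encodes the inhibitor IκBα, had 839, 844 and 729 counts in intact and 2668, 2689 and 2506 counts in crushed nerves, a log2 fold change of 1.65 (SE 0.0549, edgeR adjusted p = 1.40e-07). Relb, a subunit of the noncanonical dimer, rose from 4.29 ± 0.355 to 15.4 ± 0.755 CPM (SD, n = 3 each), and Birc3, an inhibitor of apoptosis at the TNF receptor, from 5.32 ± 0.386 to 18.5 ± 1.33 CPM. Bcl3, a nuclear IκB protein, and Nfkbie, which encodes IκBε, rose by 1.16 and 1.01 on the log2 scale (edgeR adjusted p = 0.00182 and 9.40e-05), and without intact nerve 3 both were under the limit and 3 genes of the list were called. For each of the 5 genes the 3 crushed nerves lay above the 3 intact nerves, as they did for 10.8% of all genes tested. The 5 genes were picked by their calls on these nerves, so this adds no support. Among cytokine genes, chosen here after their values were seen, Il1b had no count, Il1a at most 1, Il6 at most 3 and either Tnf locus at most 2 in any nerve. What induced the chemokines was not tested.

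Genes of the interferon response, the other known inducing pathway of Cxcl10 and Cxcl11, rose in a smaller number. All 34 genes listed were in the table and 28 were tested, of which 1 was called higher and 0 lower, against 0.218% and 0.0646% of all genes. By an adjusted p under 0.05, 8 were higher and 0 lower, against 1.47% and 1.65% of all genes, and 20 did not pass. With an unadjusted p under 0.05, 0 were lower, and DESeq2 called 1 higher and 0 lower. The gene called was Gbp5, a guanylate-binding protein of innate immunity, with 8, 18 and 11 counts in intact and 96, 107 and 91 counts in crushed nerves, a log2 fold change of 2.92 (SE 0.233, edgeR adjusted p = 5.57e-05). The groups were far apart. Gbp2 and the transcription factor Irf1 rose less, by 0.77 and 0.42 on the log2 scale (edgeR adjusted p = 1.68e-06 and 0.000158). The median over the list was 0.11. This list, too, was chosen with earlier results of these data known and is not independent evidence. Ifng had at most 1 count in any nerve and Ifnb1 had none.

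**Figure D4:**
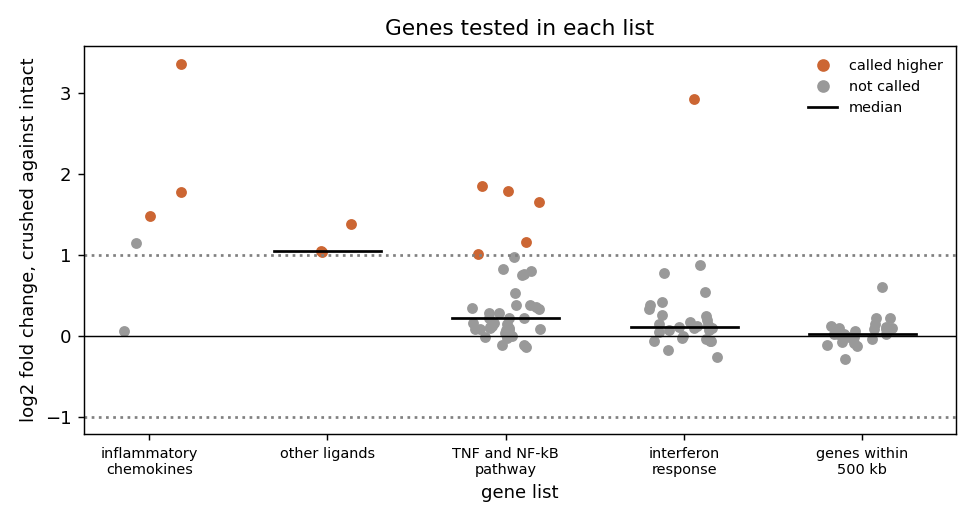
Log2 fold change of each tested gene in the 9 inflammatory chemokines, the other chemokine ligands, the TNF and NF-κB list, the interferon list and the genes within 500 kb of the chemokines; orange points were called higher, black bars are list medians (not drawn for the inflammatory chemokines) and dotted lines mark the limits of 1 and -1. In the TNF and NF-κB list 5 of 40 points are orange and the median is 0.22, in the interferon list 1 of 28 and 0.11, and among the neighbouring genes 0 of 23 and 0.03.

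The chemokines lie in clusters with other genes. Within 500 kb of the 9 genes the table held 100 other loci, of which 58 had no count and 23 were tested. With edgeR, 0 of the 23 were called and 0 had an adjusted p under 0.05, while 3 had an unadjusted p under 0.05, and DESeq2 called 0. Over all genes tested, 0.218% were called higher, 0.0646% were called lower and 16.2% had an unadjusted p under 0.05, so counts of this size among 23 genes are near the background. Their median log2 fold change was 0.03. None of the 7 other loci around Ccl2 and Ccl7 had enough counts to be tested, and Ccl11, Ccl12 and Ccl1 had no count in any nerve. In the CXC cluster, Pf4 and Ppbp, between Cxcl3 and Cxcl6, had no count, and Mthfd2l, on the other side of Cxcl1, had 590 summed counts in intact and 624 in crushed nerves.

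**Figure D5:**
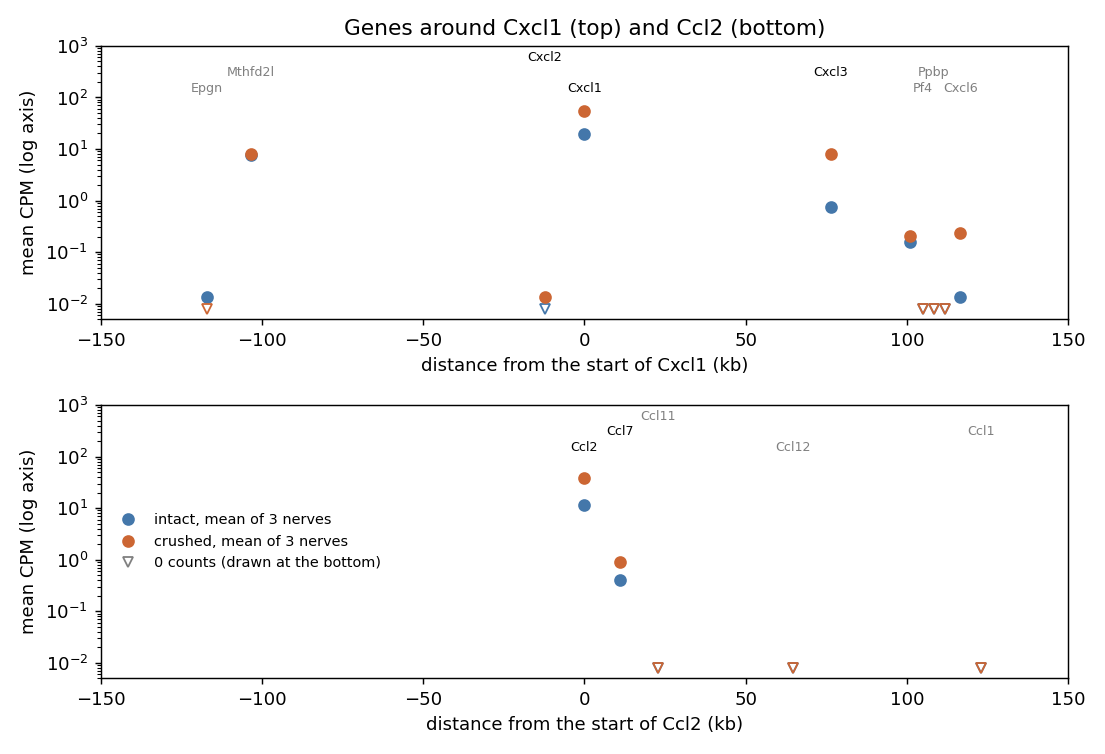
Mean CPM of the genes within 150 kb of the start of Cxcl1 (top) and of Ccl2 (bottom), on a log axis, against the distance in kb in the direction of the chromosome's coordinates. Start here is the lower deposited coordinate of a gene. Blue points are the mean of 3 intact nerves, orange points that of 3 crushed nerves, triangles mark 0 counts, and unlabelled points are 2 loci known by a clone name. Cxcl1, Cxcl3, Ccl2 and Ccl7 show a gap between the groups, while Mthfd2l does not.

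The 5 genes outside the set whose profile over the 6 nerves lay nearest to the mean profile of the 5 tested chemokines were Nfkbia, Cp, Cxcl16, Birc3 and Relb. Likeness was the Euclidean distance between centred log2 CPM profiles, which was 0.21, 0.27, 0.31, 0.39 and 0.42 for these genes, against a median of 1.89 over all other genes. The mean profile was a step between the groups, -0.77 to -0.75 in intact and 0.74 to 0.80 in crushed nerves. It came from genes chosen on this contrast. Nearness to it therefore picks genes of like fold, here log2 fold changes of 1.38 to 1.85, and joint regulation was not tested. For the chemokines themselves the distance was 0.28 for Cxcl1, 0.57 for Ccl2, 0.94 for Ccl7, 1.81 for Cxcl10 and 2.21 for Cxcl3. Cxcl10 thus lay near the median of all other genes and Cxcl3 beyond it.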

How the data were processed

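RNA-seq was performed by the authors on 3 crushed and 3 intact rat sciatic nerves. The submitters' processing notes name HISAT2, StringTie 1.3.0 and the Rnor_6.0 build, and the counting program and annotation release are not given in the sources used here. The deposited table holds raw counts per Ensembl gene and nerve, and the FPKM values that the authors derived from them, with a length per gene that varied by a median of 2.34e-05 percent between nerves.

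From the counts, edgeR 4.0.16 (R 4.3.3) gave TMM-scaled CPM, log2 fold changes and quasi-likelihood p-values over 12393 of 30957 genes (filterByExpr, no replicate block), with Benjamini-Hochberg adjustment. SD is over 3 nerves and intervals are 95%. A call needed an absolute log2 fold change above 1 and an unadjusted p under 0.001, the study's limits. The 9 genes and all lists were chosen with earlier results of these data known. Genes named are the 9 members, the receptors, the called genes of each list (with the smallest p up to 3 where fewer were called), called neighbours within 500 kb, the 5 nearest profiles and defining markers, and some genes of these lists are not reported here. Tnip3, Cxcl6, the cytokine genes, Art3 and the uncalled neighbours were named after their values were seen. A floor of 3 counts was used.

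Alternatives were the replicate block, DESeq2 1.42.0, no TMM scaling, no filter, limma 3.58.1 on log2(FPKM + 0.1) and log2(FPKM + 1), other call limits and each nerve left out. Totals per nerve were 24844371 to 27139360. Replicates differed beyond sampling noise (chi-square per degree of freedom 3.38 to 12.3), and all 6 nerves were kept. The largest values were those of intact nerve 1 against intact nerves 2 and 3 (12.0 and 12.3). Intact nerves 2 and 3 gave 4.75 against each other. The fit was tested on simulated counts for 12305 genes, in which 200 of 200 changed genes (log2 fold 2) and 0 of 12105 unchanged genes were called. Changes near the call limit of 1 were not simulated, so recovery there is not known. Promoter windows are from RefSeq (GRCr8), whose coordinates were not mixed with those of the table.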

Additional observations from a re-analysis of the deposited data

How the results depend on the processing

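The 3 chemokine calls held under all alternatives, and no direction reversed. Since the genes were chosen on these same nerves, this shows only how the calls depend on the processing. The calls of receptors and neighbours also remained at 0. With limma on log2(FPKM + 1), 14 genes instead of 27 were called higher, 0 instead of 8 lower, 3 instead of 5 of the TNF and NF-κB list, 0 instead of 1 of the interferon list and 2 instead of 3 of the other ligands, Cx3cl1 being lost. Without the fold limit the numbers were 162, 166, 14 and 7. Called lower were 5 genes with the replicate block, 5 by DESeq2 and 2 on log2(FPKM + 0.1). With 1 nerve left out, 23 to 31 genes were called higher, 3 to 10 lower (3 without intact nerve 1 or intact nerve 2), 3 to 6 of the TNF and NF-κB list, 2 to 3 of the other ligands and 1 of the interferon list each time. Left out in turn, the nerves gave a log2 fold change of 1.39 to 1.54 for Cxcl1, 3.20 to 3.61 for Cxcl3, 0.03 to 0.11 for Cxcl10, 1.68 to 1.99 for Ccl2 and 0.97 to 1.53 for Ccl7, the highest without intact nerve 3. On log2(FPKM + 1), Cxcl3 had 2.04 and Ccl7 0.49, since the pseudocount shrinks low genes. Nfkbie was also under the limit without crushed nerve 1 or 2. The cause of the other shifts was not tested. Same-numbered nerves did not deviate together (correlations -0.00965, -0.00262 and 0.0709), which does not show whether a pair came from 1 rat, and the fit has no block. With the replicate block, 3 of the chemokines, 3 other ligands, 5 genes of the TNF and NF-κB list and 1 interferon gene were called, and 24 genes in all were higher. With 3 nerves per group and under 30 counts per nerve, values such as those of Ccl7 are limited by depth.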
